A study of Mus musculus with 8 samples.

Results

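The interferon-stimulated genes are the transcripts that cells switch on when an interferon binds its receptor. They were followed here through a list of 36 mouse genes, given by symbol rather than by a measured value, in 8 whole colon tumours. Identifiers for 34 of the 36 were found in the count tables through GENCODE M21, and all 34 were among the 16539 genes tested. Expression of Gbp5 and Gbp6 was not analysed here. The tumours came from azoxymethane-treated mice, 1 tumour per mouse: 4 of genotype Trp53ΔIEC and 4 of genotype Trp53ΔIECAktE17K. Both groups carry the Trp53 deletion, written in the field's notation as restricted to intestinal epithelial cells, and both received the carcinogen, so the groups differ, as labelled, by the activating AktE17K allele. Sample titles also carry a letter that is not explained: 2 tumours, Trp53ΔIECAktE17K replicates 1 and 2, have an A, and the remaining 6 have a B. The sources used here give no Cre driver, age or strain for the mice. RNA was taken from whole tumours, so epithelium, stroma and immune cells are mixed, and fewer cells of a type cannot be told apart from less RNA per cell.

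Type I and type III interferons signal through the kinases JAK1 and TYK2 to a complex that holds STAT2 and IRF9 and binds the interferon-stimulated response element in target promoters. Interferon gamma signals through JAK1 and JAK2 to the gamma-activated site in its target promoters, and induces IRF1 and the guanylate-binding proteins strongly. In the gut, these programmes restrain viruses and intracellular bacteria, and in tumours they are a common readout of nucleic acid sensing and of T and NK cell activity.

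Ifi27l2a, a small interferon-induced membrane protein gene, rose 3.74-fold in the Trp53ΔIECAktE17K tumours, from 10.8 ± 3.64 to 40.5 ± 6.07 CPM (mean ± SD, n = 4 each, adjusted p = 0.0160). It was the 1 member of 34 that passed the test, a share of 2.94%. Of all tested genes 4.2% passed, 3.44% in the higher direction, so the number of members called is near the background. No member passed in the lower direction, where 0.756% of all genes did. At an unadjusted p under 0.05, 14 members were higher and 0 lower (41.2% against 12.8% of all genes higher, and 8.07% lower). Leaving out 1 tumour lowered the 14 to 7 without Trp53ΔIECAktE17K replicate 2, 8 without Trp53ΔIEC replicate 3 and 9 without Trp53ΔIECAktE17K replicate 4, against 11.1%, 11.5% and 13.2% of all genes. DESeq2 called 5 members higher (14.7%, against 8.31% of the genes it tested) and 0 lower. The limma-voom fit called 1 higher (2.94%, against 2.61% of all genes) and 0 lower. CPM is a gene's reads scaled to a common library size by TMM, and the adjusted p is from edgeR's quasi-likelihood test over all tested genes.

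The log2 fold change, always Trp53ΔIECAktE17K over Trp53ΔIEC, was above 0 for 27 of 34 members (51.1% of all genes), with a median of 0.73 against 0.01 over all tested genes. All 5 oligoadenylate synthetase genes, both Mx genes and all 3 genes of the ISG15 system had values above 0, while all 3 guanylate-binding protein genes, Irf1, Irf9, Ifit2 and Parp14 had values below 0. The groups did not overlap for 7 members, all higher: Bst2, Ifi27l2a, Irf7, Isg15, Mx1, Oas1a and Oas2. That is 20.6% of the members against 8.34% of all genes in that direction, and 0 members against 5.88% in the other. The number was 14 without Trp53ΔIEC replicate 4 (10.2% of all genes) and 11 without Trp53ΔIECAktE17K replicate 3 (11.3%). With any other single tumour left out it was 7 to 10, against 9.61% to 11.8% of all genes.

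**Figure D1:**
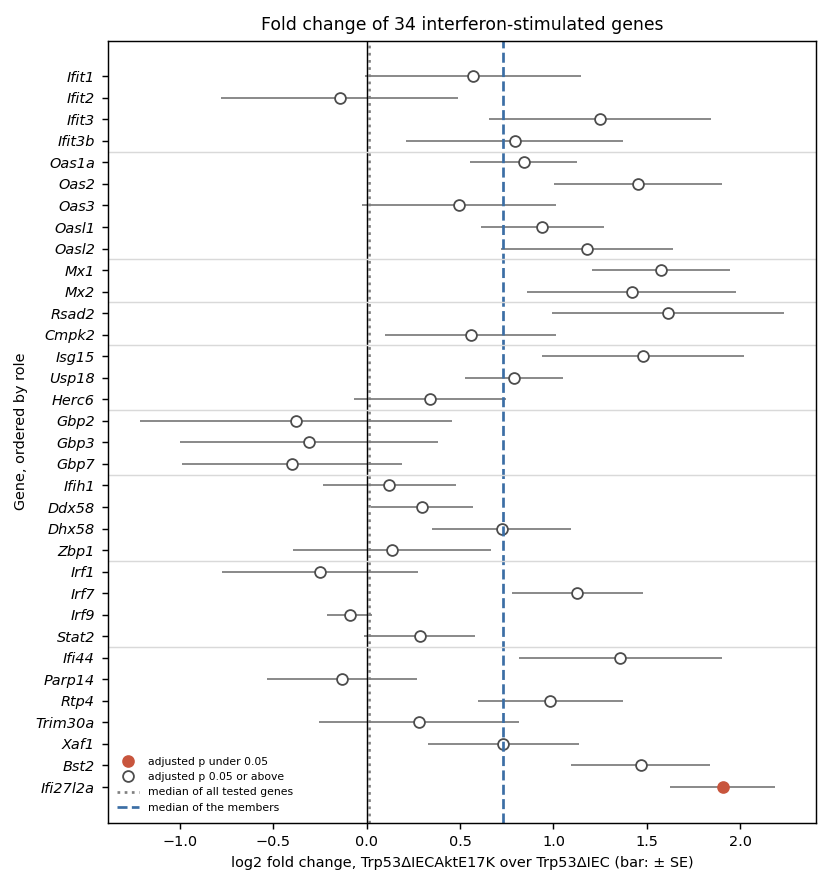
Log2 fold change (points) with its standard error (bars) for 34 interferon-stimulated genes, Trp53ΔIECAktE17K over Trp53ΔIEC, n = 4 tumours a group, with lines between roles. Ifi27l2a is the filled point at 1.90. The dashed line marks the members' median of 0.73 and the dotted line the median of all tested genes, 0.01.

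Trp53ΔIEC replicate 1 stood apart in these genes. It had the lowest level of all 8 tumours in 32 of the 34 members, and the lowest of its group in all 34, while it was the lowest tumour in 12.3% of all tested genes. Relative to each gene's own mean log2 CPM over the 8 tumours, the median member lay at -1.85, 0.08, -0.34 and 0.15 in Trp53ΔIEC replicates 1 to 4 and at 0.16, 0.84, 0.12 and 0.58 in Trp53ΔIECAktE17K replicates 1 to 4. Reads assigned to genes ranged from 18572180 to 26268547, and replicate 1 had 25842173. Its share of uniquely aligned reads with no feature was the highest of the 8 tumours, at 11.7%, and the lowest was 9.74%. The cause of its low levels was not tested. Without that tumour the members' median log2 fold change was 0.46, 14 members were higher at an unadjusted p under 0.05 (13.1% of all genes), and 24 members had values above 0. Without it 7 members had no overlap between the groups, against 11.4% of all genes.

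The marker genes of the colon epithelium were present in every tumour, with summed levels of 10637 to 13509 CPM in Trp53ΔIEC as against 5899 to 14383 CPM in Trp53ΔIECAktE17K tumours over 10 genes. Stromal markers moved with the genotype. Of the fibroblast markers 3 of 10 rose (summed 2657 to 4449 against 5819 to 8627 CPM), and of the smooth muscle markers 7 of 8 (summed 308 to 498 against 1131 to 1828 CPM). Heart muscle markers, which a colon tumour should lack, rose in 7 of 9 tested genes (summed 36.9 to 115 against 160.4 to 229 CPM). The 7 leukocyte markers gave 0 calls (0 at an unadjusted p under 0.05, and 0 by DESeq2 and by limma-voom), and their sums overlapped: 184 to 490.3 against 174 to 487 CPM. Squamous markers rose in 5 of 8, with overlapping sums of 39.1 to 209 against 171 to 14614 CPM, the highest in Trp53ΔIECAktE17K replicate 1, and limma-voom called 0 of the 8. Endothelial markers rose in 1 of 8 (summed 160.0 to 299 against 241 to 434 CPM). None of the listed genes of these 7 cell types was at 0 in all tumours. The part of these cell types in the differences described here was not tested.

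The sequences below are promoter windows of 6 members, 250 bases before to 50 after the start site, from RefSeq on GRCm38.p6. They place the 2 response elements in genes picked because they differ in these data. Isg15 and Bst2 were among the 7 without overlap, though neither passed the test. Gbp2 and Irf1 were not among the 7, and Ifit3 and Ifit3b are near-copies. A link between the elements and the group differences was not tested. Each runs 5′ to 3′ on the gene's strand, with capitals for a match to either element on either strand: GAAA, any 2 bases and GAAA for the response element, and TTC, any 3 bases and GAA for the gamma-activated site. The windows are Isg15 at chr4:156200769-156201068 (minus strand), Bst2 at chr8:71537423-71537722 (minus strand), Gbp2 at chr3:142620413-142620712 (plus strand), Irf1 at chr11:53769764-53770063 (plus strand), Ifit3 at chr19:34583279-34583578 (plus strand) and Ifit3b at chr19:34607707-34608006 (plus strand).
Isg15: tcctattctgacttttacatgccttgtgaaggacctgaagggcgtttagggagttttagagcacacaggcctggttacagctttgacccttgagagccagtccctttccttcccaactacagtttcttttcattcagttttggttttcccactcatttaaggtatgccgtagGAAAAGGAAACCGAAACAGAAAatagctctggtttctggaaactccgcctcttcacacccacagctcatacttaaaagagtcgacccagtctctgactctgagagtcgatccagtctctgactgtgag
Bst2: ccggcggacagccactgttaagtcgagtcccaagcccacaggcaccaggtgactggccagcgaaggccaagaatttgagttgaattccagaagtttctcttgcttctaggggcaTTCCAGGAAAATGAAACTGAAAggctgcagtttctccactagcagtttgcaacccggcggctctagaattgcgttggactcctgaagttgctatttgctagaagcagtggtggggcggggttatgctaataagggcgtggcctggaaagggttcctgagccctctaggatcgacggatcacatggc
Gbp2: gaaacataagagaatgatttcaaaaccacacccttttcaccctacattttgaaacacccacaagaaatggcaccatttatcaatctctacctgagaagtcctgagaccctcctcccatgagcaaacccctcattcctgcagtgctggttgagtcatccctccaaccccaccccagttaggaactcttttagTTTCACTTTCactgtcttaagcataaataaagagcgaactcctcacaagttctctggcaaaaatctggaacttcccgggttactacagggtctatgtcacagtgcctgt
Irf1: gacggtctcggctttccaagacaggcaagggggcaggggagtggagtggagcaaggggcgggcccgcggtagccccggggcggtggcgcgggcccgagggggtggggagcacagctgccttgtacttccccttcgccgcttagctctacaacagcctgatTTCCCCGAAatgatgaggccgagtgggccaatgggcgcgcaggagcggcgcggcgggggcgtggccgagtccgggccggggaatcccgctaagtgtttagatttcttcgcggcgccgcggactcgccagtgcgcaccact
Ifit3: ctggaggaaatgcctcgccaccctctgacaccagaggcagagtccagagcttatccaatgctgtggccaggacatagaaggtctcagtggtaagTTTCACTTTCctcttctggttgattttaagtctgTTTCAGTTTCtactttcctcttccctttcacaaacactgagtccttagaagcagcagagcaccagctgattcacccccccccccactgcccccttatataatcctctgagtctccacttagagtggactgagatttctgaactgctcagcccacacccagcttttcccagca
Ifit3b: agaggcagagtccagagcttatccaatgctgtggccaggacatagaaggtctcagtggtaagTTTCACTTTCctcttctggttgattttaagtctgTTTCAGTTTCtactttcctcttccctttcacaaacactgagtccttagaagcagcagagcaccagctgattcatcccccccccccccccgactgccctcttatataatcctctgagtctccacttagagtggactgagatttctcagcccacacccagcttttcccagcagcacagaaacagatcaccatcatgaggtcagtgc

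In the Isg15 window 3 response element matches began 78, 72 and 66 bases before the start site and overlapped each other. Bst2 had 2, at 130 and 124 bases before the start, and a gamma-activated site match at 136 bases that overlaps the first of them. Gbp2 had 1 response element match, 59 bases before the start. Irf1 had none in this window and 1 gamma-activated site match, 90 bases before the start. Ifit3 and Ifit3b had 2 response element matches each, with the same letters, at 156 and 122 bases in Ifit3 and at 188 and 154 bases in Ifit3b. The windows of this pair, 300 bases each, aligned over 340 columns, gaps included, and 259 columns (76.2%) were identical. That share counts columns with a gap as not identical, and the matches lie at different distances from the 2 start sites.

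Windows were found for 26 of the 36 listed genes, Gbp5 among them. A response element match lay in the window of 16 of these 26 genes (61.5%), against 3.99% of all 27025 genes in the table, searching both strands. A gamma-activated site match lay in 6 (23.1%), against 9.55%. Of the 25 tested members with a window, the 15 with a response element match had a median log2 fold change of 0.49 (-0.40 to 1.61) and the 10 without a match had 0.64 (-0.25 to 1.36). The 2 ranges overlapped. No window was found for the tested members Ifi27l2a, Mx1, Mx2, Oas2, Usp18, Rtp4, Zbp1, Dhx58 and Parp14. Their log2 fold changes ran from -0.13 (Parp14) to 1.90 (Ifi27l2a). The medians therefore leave out the called gene, and Mx1 and Oas2 of the members without overlap.

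Among the transcription factor members Irf7, the factor that amplifies type I interferon production, was higher in every Trp53ΔIECAktE17K tumour without passing the test. Irf7 (ENSMUSG00000025498, chromosome 7, 141262706 to 141266481, minus strand, mm10) had 59.8, 186, 166 and 122 CPM in Trp53ΔIEC replicates, against 240.0, 344, 209 and 373 CPM in Trp53ΔIECAktE17K replicates, each listed for replicates 1 to 4. Its lowest Trp53ΔIECAktE17K tumour lay above the highest Trp53ΔIEC tumour. The log2 fold change was 1.13 ± 0.35 (SE) with an adjusted p of 0.119, and 0.0351 in DESeq2.

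The other factors of this group overlapped. Irf9, the DNA-binding subunit of the complex at the response element, was the steadiest member, with a highest tumour only 1.31 times the lowest. It had 136, 154, 158 and 152 CPM in Trp53ΔIEC replicates, against 121, 159, 134 and 149 CPM in Trp53ΔIECAktE17K replicates, and its log2 fold change of -0.09 ± 0.12 has a 95% interval of -0.37 to 0.19. Stat2, which brings the activation domain to IRF9, gave a log2 fold change equal to 0.28 ± 0.30 (adjusted p = 0.636).

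Irf1, which interferon gamma induces directly, had 100.1, 214, 381 and 180.5 CPM in Trp53ΔIEC replicates, against 129, 325, 67.8 and 215 CPM in Trp53ΔIECAktE17K replicates. Its highest value was Trp53ΔIEC replicate 3 and its lowest Trp53ΔIECAktE17K replicate 3, and the log2 fold change of -0.25 ± 0.52 has an interval of -1.45 to 0.95. Per kilobase of exon, over the 8 tumours, Irf7 had a mean level of 56.3 CPM, Irf1 50.7, Irf9 27.0 and Stat2 20.05.

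None of the 4 cytosolic sensors of foreign nucleic acid passed the test, and none had an unadjusted p under 0.05. Zbp1, the sensor of Z-form nucleic acid that can start necroptosis, was the most abundant of the 4 per kilobase, at 39.9 CPM. It had 32.0, 141, 214 and 149.6 CPM in Trp53ΔIEC replicates, against 92.5, 233, 97.8 and 167 CPM in Trp53ΔIECAktE17K replicates. Within each group its tumours differed by more than the group means did, at 134 ± 75.6 and 148 ± 66.5 CPM. The RNA helicase genes Ifih1 (encoding MDA5) and Ddx58 (RIG-I) gave, on the log2 fold change scale, 0.12 ± 0.35 and 0.30 ± 0.27 (adjusted p = 0.882 and 0.583). Dhx58, the regulatory helicase LGP2, had 0.72 ± 0.37 (adjusted p = 0.309). Without Trp53ΔIEC replicate 1 the values of Zbp1 and Ifih1 were -0.19 and -0.15.

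The oligoadenylate synthetases make the second messenger that activates RNase L, and their family had values above 0 throughout. Oas2 (ENSMUSG00000032690, chromosome 5, 120730333 to 120749853, minus strand) had 13.7, 54.8, 26.3 and 57.3 CPM in Trp53ΔIEC replicates, against 64.3, 133, 117 and 102 CPM in Trp53ΔIECAktE17K replicates. Its groups did not overlap, and the log2 fold change was 1.45 ± 0.45 (adjusted p = 0.116, DESeq2 0.0239). Oas1a, the family's most abundant member per kilobase (35.5 CPM), had 24.8, 65.0, 45.1 and 57.2 CPM in Trp53ΔIEC replicates, against 65.1, 101, 84.7 and 93.4 CPM in Trp53ΔIECAktE17K replicates, again with no overlap (log2 fold change 0.84 ± 0.29, adjusted p = 0.144). Of the distinct 50-base stretches in Oas1a transcripts 57.6% also occur in another gene, all of them in Oas1g, so its level is uncertain.

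The Oasl genes encode family members with ubiquitin-like domains, and neither passed. Oasl1 had 30.2, 41.8, 52.6 and 94.7 CPM in Trp53ΔIEC replicates, against 85.6, 99.7, 109 and 127 CPM in Trp53ΔIECAktE17K replicates, and Oasl2 had 32.2, 148, 116 and 175 CPM in Trp53ΔIEC replicates, against 174, 288, 335 and 272 CPM in Trp53ΔIECAktE17K replicates. In both, 1 or more Trp53ΔIECAktE17K tumours lay below the highest Trp53ΔIEC tumour, replicate 4. Fold changes on the log2 scale were 0.94 ± 0.33 and 1.18 ± 0.46 (adjusted p = 0.152 and 0.190). Oas3, which encodes the largest synthetase, had 0.49 ± 0.52 (adjusted p = 0.637).

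Mx1 and Mx2 encode dynamin-like GTPases that block viral nucleoproteins, and Mx1 was the member nearest the threshold after Ifi27l2a. Mx1 (ENSMUSG00000000386, chromosome 16, 97447035 to 97462907, minus strand) had 5.47, 18.5, 12.0 and 14.1 CPM in Trp53ΔIEC replicates, against 40.8, 50.2, 31.7 and 26.3 CPM in Trp53ΔIECAktE17K replicates. All Trp53ΔIECAktE17K tumours lay above all Trp53ΔIEC tumours, and the log2 fold change was 1.58 ± 0.37 with an adjusted p of 0.0545 (0.00164 in DESeq2, 0.0521 in limma-voom). Mx2 had 3.56, 16.4, 6.59 and 19.3 CPM in Trp53ΔIEC replicates, against 22.9, 32.0, 50.6 and 17.0 CPM in Trp53ΔIECAktE17K replicates, with Trp53ΔIECAktE17K replicate 3 highest and replicate 4 below Trp53ΔIEC replicate 4. Its log2 fold change was 1.42 ± 0.56 (adjusted p = 0.196).

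Rsad2 and Cmpk2 are neighbours on chromosome 12, and their products act in the same nucleotide pathway: CMPK2 phosphorylates nucleoside monophosphates and viperin, from Rsad2, converts CTP into a chain terminator. Rsad2 had 2.72, 18.0, 12.6 and 33.7 CPM in Trp53ΔIEC replicates, against 52.8, 70.6, 33.1 and 48.3 CPM in Trp53ΔIECAktE17K replicates. It spanned the widest range of all members, 26.0-fold from Trp53ΔIEC replicate 1 to Trp53ΔIECAktE17K replicate 2. The log2 fold change was 1.61 ± 0.62 (adjusted p = 0.185), and Cmpk2 had 0.56 ± 0.46 (adjusted p = 0.531). Per kilobase Cmpk2 was at 9.22 and Rsad2 at 7.84 CPM.

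Isg15 encodes the ubiquitin-like modifier of the system, and it was the second most abundant member per kilobase over the 8 tumours together and the third in Trp53ΔIEC, at 60.9 CPM in Trp53ΔIEC as against 169.9 CPM in Trp53ΔIECAktE17K tumours. Isg15 (ENSMUSG00000035692, chromosome 4, 156199424 to 156200818, minus strand) had 8.27, 64.1, 44.0 and 67.9 CPM in Trp53ΔIEC replicates, against 92.0, 154, 122 and 145 CPM in Trp53ΔIECAktE17K replicates. The groups did not overlap, with Trp53ΔIEC replicate 1 far below the rest, and the log2 fold change was 1.48 ± 0.54 (adjusted p = 0.166). Usp18, which removes ISG15 and restrains the type I receptor, had 43.2, 78.6, 55.1 and 104 CPM in Trp53ΔIEC replicates, against 115, 103, 136 and 130.5 CPM in Trp53ΔIECAktE17K replicates. Its Trp53ΔIECAktE17K tumours were close to each other, within 1.33-fold, and 1 of them lay below Trp53ΔIEC replicate 4. Usp18 gave a log2 fold change equal to 0.79 ± 0.26 (adjusted p = 0.137), and Herc6, the mouse ligase that attaches ISG15, had 0.34 ± 0.41 (adjusted p = 0.682).

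The IFIT proteins bind viral RNA ends and stop its translation. Ifit1 was the most abundant of the 4 per kilobase over the 8 tumours together (27.6 CPM), although in Trp53ΔIEC Ifit2 was at 24.3 and Ifit1 at 22.2 CPM. Ifit1 had 10.8, 81.8, 41.6 and 102 CPM in Trp53ΔIEC replicates, against 91.1, 90.1, 53.0 and 115 CPM in Trp53ΔIECAktE17K replicates. Apart from Trp53ΔIEC replicate 1 the groups overlapped, and the log2 fold change of 0.57 ± 0.58 has an interval of -0.75 to 1.89. Ifit2 had 18.2, 150.2, 145 and 67.4 CPM in Trp53ΔIEC replicates, against 90.5, 96.3, 31.2 and 127 CPM in Trp53ΔIECAktE17K replicates, with Trp53ΔIEC replicates 2 and 3 highest (log2 fold change -0.14 ± 0.63).

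Ifit3 and Ifit3b are near-copies on chromosome 19, and reads from their shared stretches cannot be placed. Of Ifit3's distinct 50-base transcript stretches 51.2% also occur in another gene, here Ifit3b, and of Ifit3b's 45.0% occur elsewhere. Ifit3 had 1.57, 12.9, 8.10 and 13.3 CPM in Trp53ΔIEC replicates, against 22.3, 31.9, 11.9 and 19.0 CPM in Trp53ΔIECAktE17K replicates, and Ifit3b had 1.76, 10.9, 7.60 and 14.2 CPM in Trp53ΔIEC replicates, against 15.3, 18.0, 6.89 and 19.5 CPM in Trp53ΔIECAktE17K replicates. Ifit3 made up 47.1, 54.3, 51.6 and 48.2% of the pair's summed CPM in Trp53ΔIEC as against 59.3, 64.0, 63.3 and 49.3% in Trp53ΔIECAktE17K replicates. The shares overlapped. Fold changes on the log2 scale were 1.25 ± 0.59 and 0.79 ± 0.58 (adjusted p = 0.276 and 0.480), both uncertain for that reason.

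The guanylate-binding proteins, large GTPases that attack the vacuoles of intracellular pathogens, were the role with every value below 0. Gbp2 (ENSMUSG00000028270, chromosome 3, 142620602 to 142638008, plus strand) had 26.8, 303, 391 and 248 CPM in Trp53ΔIEC replicates, against 97.8, 455, 51.3 and 142 CPM in Trp53ΔIECAktE17K replicates. The highest tumour was Trp53ΔIECAktE17K replicate 2 and the lowest Trp53ΔIEC replicate 1, so each group spans most of the range. The log2 fold change of -0.38 ± 0.84 has a 95% interval of -2.29 to 1.53, which is too wide to show a direction (adjusted p = 0.838).

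Gbp3 and Gbp7 ranked 5 of the 8 tumours in the same places as Gbp2. Gbp3 had 16.1, 189, 145 and 128 CPM in Trp53ΔIEC replicates, against 64.5, 193, 45.1 and 83.9 CPM in Trp53ΔIECAktE17K replicates, and Gbp7 had 16.5, 89.5, 111 and 73.8 CPM in Trp53ΔIEC replicates, against 44.6, 101, 23.3 and 52.0 CPM in Trp53ΔIECAktE17K replicates. In all 3 genes Trp53ΔIECAktE17K replicate 3 was the lowest of its group and replicate 2 the highest. Fold changes on the log2 scale were -0.31 ± 0.69 and -0.40 ± 0.59 (adjusted p = 0.841 and 0.746). Gbp7 shares 12.7% of its 50-base stretches with other genes, most of them with Gm43802, and 3.75% of those of Gbp3 are shared, all with Gbp7.

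**Figure D2:**
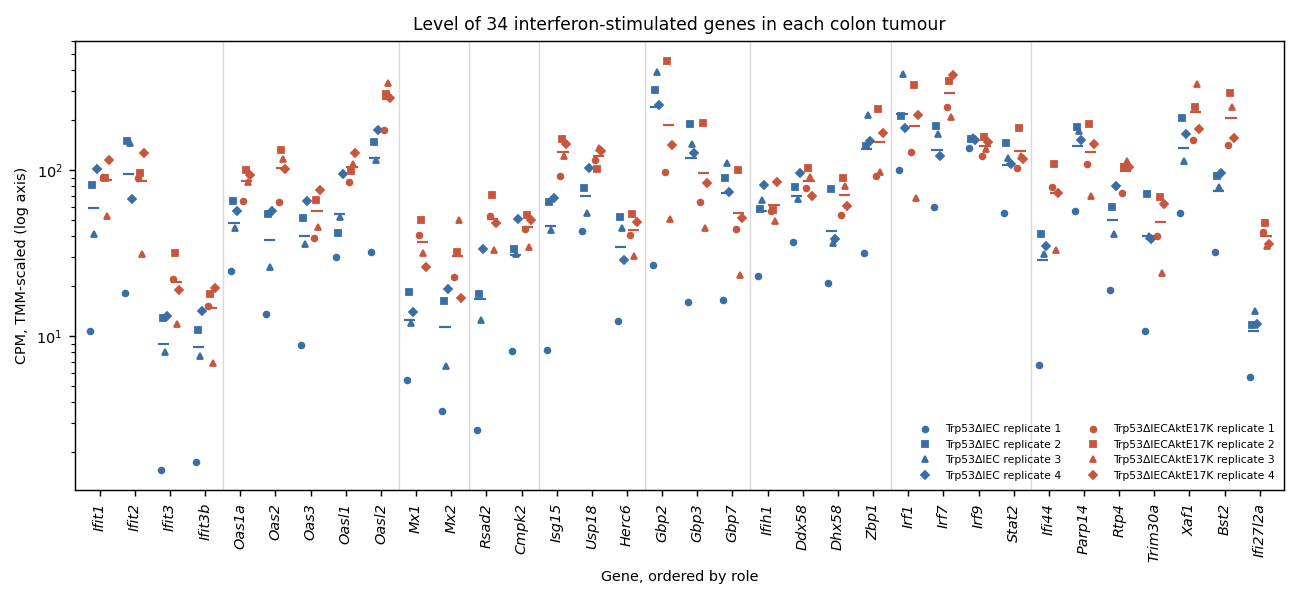
Level of 34 interferon-stimulated genes in each tumour (CPM after TMM scaling, log axis), blue for Trp53ΔIEC and red for Trp53ΔIECAktE17K, with a symbol for each replicate and a bar at the group mean, n = 4 a group. Trp53ΔIEC replicate 1 (blue circles) is the lowest point in 32 genes, and in Ifi27l2a the red points at 35.2 to 48.3 lie above the blue ones at 5.66 to 14.2.

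Among the remaining effectors, Ifi27l2a and Bst2 had the clearest separation. Ifi27l2a (ENSMUSG00000079017, chromosome 12, 103442167 to 103443680, minus strand) had 5.66, 11.7, 14.2 and 11.8 CPM in Trp53ΔIEC replicates, against 42.4, 48.3, 35.2 and 36.2 CPM in Trp53ΔIECAktE17K replicates. The Trp53ΔIECAktE17K tumours lay within 1.37-fold of each other, and the log2 fold change was 1.90 ± 0.28 (95% interval 1.26 to 2.55). Ifi27l2b, its neighbour, overlapped between the groups at 45.8, 50.3, 39.2 and 46.1 CPM in Trp53ΔIEC replicates, against 73.7, 44.7, 24.3 and 159 CPM in Trp53ΔIECAktE17K replicates (adjusted p = 0.442), and was looked at after its values were seen. The heart muscle markers named above moved with genotype in the same tumours, and Actc1, cardiac actin, was at 0.536, 0.376, 0.223 and 0.233 CPM and at 31.2, 33.1, 37.5 and 37.8 CPM. The part of that signal in the Ifi27l2a values was not tested.

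The call of Ifi27l2a was lost in 2 of 8 runs that each left out 1 tumour. Its adjusted p was 0.0653 without Trp53ΔIEC replicate 2 and 0.0657 without replicate 4, and the log2 fold change stayed between 1.68 and 2.04. Without replicate 1, the low tumour, it was 1.68 with an adjusted p of 0.0147. The call was also lost with the title's letter as a term (log2 fold change 1.72, adjusted p = 0.0770).

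Bst2, which encodes the membrane tether tetherin, was the most abundant member per kilobase in the 8 tumours together, at 83.2 CPM in Trp53ΔIEC as against 229.7 CPM in Trp53ΔIECAktE17K tumours. Bst2 (ENSMUSG00000046718, chromosome 8, 71534255 to 71537456, minus strand) had 32.3, 92.7, 79.5 and 95.9 CPM in Trp53ΔIEC replicates, against 142, 293, 239 and 156 CPM in Trp53ΔIECAktE17K replicates. Each Trp53ΔIECAktE17K tumour was above each Trp53ΔIEC tumour, and the log2 fold change was 1.47 ± 0.37 (adjusted p = 0.0691, DESeq2 0.00490). Bst2 also marks plasmacytoid dendritic cells, and their 6 listed markers, Bst2 included, summed to 332 to 563 against 467 to 873 CPM. Since these sums contain Bst2, they are no separate measure of those cells. Of the 6, edgeR called 0, DESeq2 called 1 higher and limma-voom 0, and 1, Bst2 itself, was higher at an unadjusted p under 0.05, with a list median log2 fold change of 0.23. None of the 6 was at 0 in all tumours, and Siglech ranged from 0.419 to 1.56 against 0.336 to 0.700 CPM. The part of these cells in the Bst2 values was not tested.

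Ifi44, a cytoplasmic interferon-induced protein gene, and Rtp4, a chaperone gene, gave, on the log2 fold change scale, 1.36 ± 0.54 and 0.98 ± 0.39 (adjusted p = 0.201 and 0.195). Xaf1, an antagonist of the apoptosis inhibitor XIAP, had 0.73 ± 0.40 (adjusted p = 0.343). Trim30a, a negative regulator of NF-kappaB signalling, and the ADP-ribosyltransferase gene Parp14 had 0.28 ± 0.53 and -0.13 ± 0.40 (adjusted p = 0.809 and 0.888). In each of these 5 genes at least 1 Trp53ΔIECAktE17K tumour lay below the highest Trp53ΔIEC tumour. The exons of 11 members (Oasl1, Usp18, Herc6, Gbp2, Gbp7, Dhx58, Irf1, Irf7, Irf9, Parp14 and Rtp4) share 0.954% to 13.9% of their bases with another annotated gene on either strand, and reads from those bases cannot be told apart.

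Levels per kilobase put the members in an order that differed between the groups. Over the 8 tumours the top 6 were Bst2 (156 CPM per kilobase), Isg15 (115), Gbp2 (85.2), Irf7 (56.3), Ifi27l2a (55.5) and Irf1 (50.7). The lowest 3 were Ifit3b (5.88), Mx2 (5.82) and Herc6 (4.22). In the Trp53ΔIEC tumours Gbp2 was first at 96.3 CPM per kilobase, and in the Trp53ΔIECAktE17K tumours Bst2 was first. Irf7, Ifi27l2a and Irf1 are neighbours in the overall order, and their ranges over tumours overlap.

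Spread among tumours was wide and shared by most members. The highest tumour exceeded the lowest by 7.02-fold in the median member, from 1.31-fold for Irf9 to 26.0-fold for Rsad2. In 32 of 34 members the range was wider in the Trp53ΔIEC than in the Trp53ΔIECAktE17K group, but in only 9 once Trp53ΔIEC replicate 1 was set aside. That step left fewer tumours in the Trp53ΔIEC group, and removing a tumour can only keep or narrow a range. Trp53ΔIECAktE17K replicate 2 had the highest level of the 8 tumours in 19 members, while it was the highest in 11.4% of all tested genes. Trp53ΔIECAktE17K replicate 3 was the lowest of its group in 17 members, among them all 3 guanylate-binding protein genes and Irf1, but it held the highest level of all tumours in 5 members, Oasl2, Mx2, Usp18, Rtp4 and Xaf1. Over all tested genes it was the highest tumour in 21.5% and the lowest in 20.7%.

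**Figure D3:**
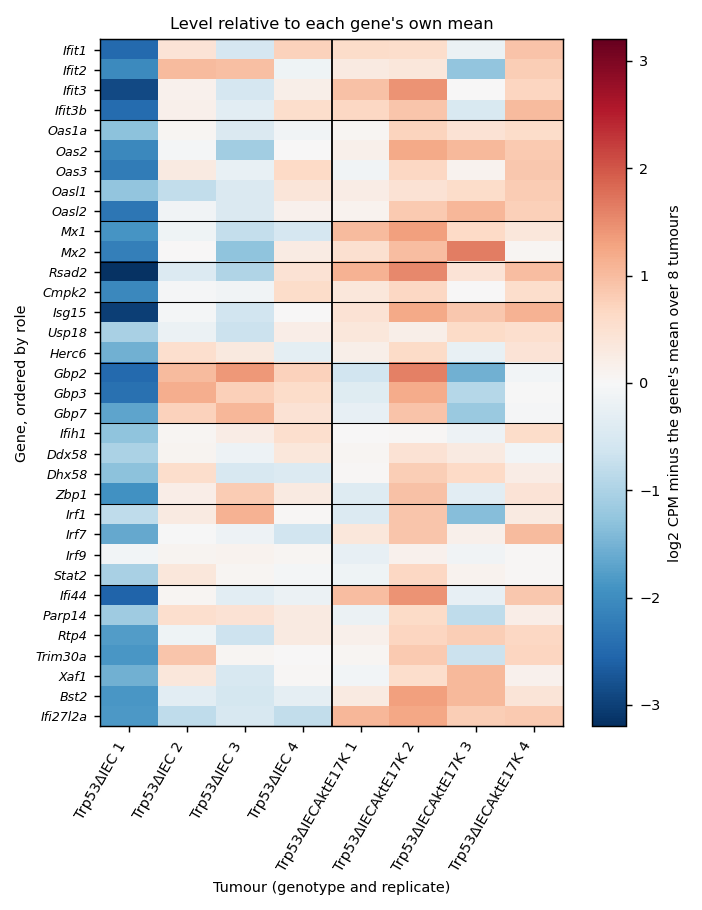
Log2 CPM of each member minus that member's mean over the 8 tumours (colour, red higher and blue lower), genes in rows by role and tumours in columns. Trp53ΔIEC replicate 1 is blue in all rows, with a median of -1.85, and the guanylate-binding protein rows are blue in Trp53ΔIECAktE17K replicate 3, unlike the Mx rows.

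The guanylate-binding protein and ISG15 roles stood in different proportions from tumour to tumour. The ratio of Gbp2 to Isg15 CPM was 3.24, 4.73, 8.89 and 3.65 in Trp53ΔIEC and 1.06, 2.94, 0.420 and 0.980 in Trp53ΔIECAktE17K replicates 1 to 4. These values do not overlap, but the pair was picked after its values were seen, so no test is given. With the mean log2 CPM of the 3 members of each role in place of the pair, the difference between the roles was 0.23, 1.43, 1.95 and 1.17 in Trp53ΔIEC and -0.21, 1.12, -1.08 and -0.19 in Trp53ΔIECAktE17K tumours, and there the groups overlapped.

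The leukocyte markers varied among tumours as well. The 7 leukocyte markers summed to 184, 379, 490.3 and 187 CPM in Trp53ΔIEC as against 408, 487, 174 and 358 CPM in Trp53ΔIECAktE17K replicates. Trp53ΔIEC replicates 1 and 4 had nearly the same sum, while their median member lay at -1.85 and 0.15 on the relative log2 scale. Macrophage and monocyte markers gave 644 and 698 CPM in these tumours. Neutrophil markers were lowest in replicate 1, at 31.7 CPM against 184 to 883 CPM in the other 7 tumours. The part of these cell types in the levels of the members was not tested.

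**Figure D4:**
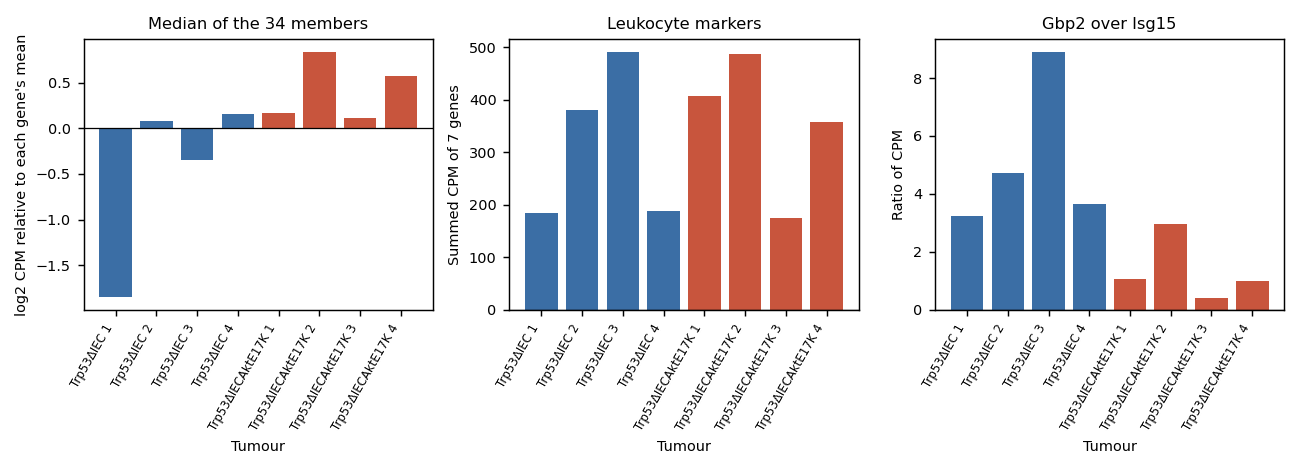
Values per tumour, blue for Trp53ΔIEC and red for Trp53ΔIECAktE17K: the members' median log2 CPM relative to each gene's mean (left), the summed CPM of 7 leukocyte markers (middle) and the ratio of Gbp2 to Isg15 CPM (right). The left bar of Trp53ΔIEC replicate 1 reaches -1.85 and its leukocyte sum of 184 is close to the 187 of replicate 4, and the ratio is 3.24 to 8.89 in the blue and 0.420 to 2.94 in the red bars.

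Of the 124 further interferon pathway genes listed, 118 were matched and 99 were tested. None of them passed in edgeR, against 4.2% of all tested genes. At an unadjusted p under 0.05, 8 of the 99 were higher and 8 lower, against 12.8% and 8.07% of all genes. DESeq2 called 4 higher (Ccl5, Ms4a4c, Oas1b and Oas1g) and 5 lower (Ifngr2, Ifnlr1, Ikbke, Tbk1 and Tyk2). Of the 20627 genes it tested, DESeq2 called 1715 higher (8.31%) and 764 lower. The limma-voom fit called 0 of the pathway genes, against 2.61% of all genes in the higher direction. The median log2 fold change of the 99 was 0.08.

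The interferon ligands were barely detected and none could be tested. Of 17 ligand genes matched, 8 interferon alpha genes had 0 reads in all tumours, which allows up to 3 reads, or 0.113 to 0.168 CPM, in a library, for counting error only. Reads that did not align uniquely were not counted for any gene, so reads shared between related ligand genes would be missing. Ifnb1 had 6 reads over the 8 tumours. Ifng, the ligand made by T and NK cells, had 0, 30, 33 and 4 reads in Trp53ΔIEC and 1, 107, 8 and 3 reads in Trp53ΔIECAktE17K replicates 1 to 4. Its highest tumour, Trp53ΔIECAktE17K replicate 2, was also the highest for Gbp2. Trp53ΔIEC replicates 2 and 3 came next for both, while Trp53ΔIEC replicate 4 had 248 CPM of Gbp2 with 4 Ifng reads. Gbp7 and Irf1 were highest in Trp53ΔIEC replicate 3 instead, and Trp53ΔIECAktE17K replicate 2 was the highest tumour in 19 members. The part of Ifng in these levels was not tested.

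The list of receptors and the list of kinases, STATs and IRFs had median log2 fold changes of -0.31 and -0.23, and none of their genes passed the test. Ifnlr1, the interferon lambda receptor chain of epithelium, had 54.3, 27.1, 31.9 and 40.2 CPM in Trp53ΔIEC replicates, against 15.4, 15.97, 18.1 and 24.2 CPM in Trp53ΔIECAktE17K replicates. The groups did not overlap, and the log2 fold change was -1.06 ± 0.25 (adjusted p = 0.0576). Ifngr2, a chain of the gamma receptor, and the kinase gene Tyk2 had -0.85 ± 0.25 and -0.56 ± 0.14 (adjusted p = 0.105 and 0.0615), and Jak2 had -0.64 ± 0.28 (adjusted p = 0.231). The epithelial markers, which had 0 calls and 4 of 10 lower at an unadjusted p under 0.05, had a median log2 fold change of -0.41 (DESeq2 called 1 lower, limma-voom 0), and their part in these values was not tested.

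In the sensing branch the kinase genes Ikbke and Tbk1, which activate the interferon regulatory factors, gave, on the log2 fold change scale, -0.93 ± 0.29 and -0.32 ± 0.11 (adjusted p = 0.119 and 0.139). Of the genes of feedback and restraint, Rnaseh2b, a subunit of the nuclease that removes RNA from DNA, and the exonuclease gene Isg20 had 0.41 ± 0.19 and 0.87 ± 0.42 (adjusted p = 0.271 and 0.276).

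The immunity-related GTPases and the further guanylate-binding proteins, both induced by interferon gamma, gave 0 calls. Igtp had 12.1, 277, 246 and 115 CPM in Trp53ΔIEC replicates, against 127, 523, 204 and 158 CPM in Trp53ΔIECAktE17K replicates, a log2 fold change of 0.64 ± 0.82, and Irgm1 had 0.39 ± 0.56. Gbp8 and Gbp2b had -0.95 ± 0.79 and -0.49 ± 0.96. Each of these 4 genes was lowest in Trp53ΔIEC replicate 1, and none passed (adjusted p from 0.536 to 0.812).

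Among the other induced genes Oas1g, the near-copy of Oas1a, had 9.61, 23.8, 18.1 and 25.0 CPM in Trp53ΔIEC replicates, against 28.8, 40.5, 38.7 and 40.6 CPM in Trp53ΔIECAktE17K replicates, without overlap (log2 fold change 0.96 ± 0.29, adjusted p = 0.115). Ms4a4c, a membrane protein gene of leukocytes, had 2.10 ± 0.69 (adjusted p = 0.133). Aim2, the DNA sensor of an inflammasome, and Ifi208 of the same family had -0.62 ± 0.27 and 1.67 ± 0.69 (adjusted p = 0.239 and 0.209), with Ifi208 under 1 CPM in every tumour.

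The chemokines that draw T cells were highest in 1 tumour in the 2 genes named here. Ccl5 had 0.804, 3.35, 3.30 and 1.91 CPM in Trp53ΔIEC replicates, against 10.9, 57.4, 2.27 and 4.00 CPM in Trp53ΔIECAktE17K replicates, with Trp53ΔIECAktE17K replicate 2 far above the rest, and its log2 fold change was 2.99 ± 1.04 (adjusted p = 0.148). Cxcl11 had 0.536, 6.02, 6.54 and 5.82 CPM in Trp53ΔIEC replicates, against 8.68, 35.7, 13.2 and 5.402 CPM in Trp53ΔIECAktE17K replicates, with the same tumour highest (log2 fold change 1.74 ± 0.80, adjusted p = 0.263). Among 11 tested T and NK cell markers Gzma, a granule protease, rose from 0.878 ± 0.760 to 8.90 ± 4.91 CPM (adjusted p = 0.0472), and it was the only one of the 11 called. Over these 11 genes the median on the log2 scale was -0.76, with the T cell markers Cd3e and Cd8a at -1.12 ± 0.94 and -1.15 ± 0.82 (adjusted p = 0.540 and 0.465). The summed level of that list was 20.2 to 82.5 against 24.7 to 49.8 CPM.

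**Figure D5:**
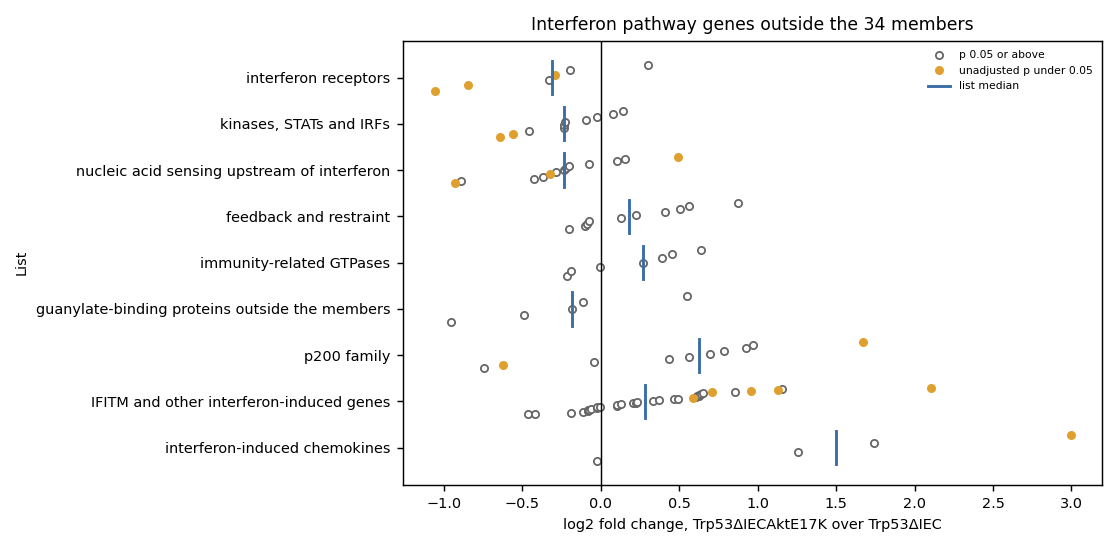
Log2 fold change, Trp53ΔIECAktE17K over Trp53ΔIEC, of 99 tested interferon pathway genes outside the members, 1 point per gene, with a bar at each list's median. Filled points have an unadjusted p under 0.05 and none passed after adjustment. The receptor list has its median at -0.31 and the list of kinases, STATs and IRFs at -0.23.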

How the data were processed

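RNA of 8 whole tumours was prepared with the TruSeq mRNA v2 kit, per the labels' protocols; that kit does not record strand. The authors deposited raw read counts per Ensembl gene. The submitters' processing notes name build mm10 and, with no roles, HTSeq 0.6, STAR 2.3.0, DESeq2 1.8.1, CASAVA 1.8.2 and SAMtools 1.2; the sources used here give neither annotation release nor strand setting. Closing lines that name no gene (no feature: 9.74% to 11.7% of uniquely aligned reads) were set aside. GENCODE M21 held 36602 of 38355 identifiers, 95.4%.

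Genes were kept by filterByExpr, scaled by TMM and tested with edgeR 4.0.16 (robust quasi-likelihood, group as the only term, R 4.3.3) with Benjamini-Hochberg adjustment over 16539 genes and a threshold of 0.05; the script was checked on simulated data. The intervals of fold changes are 95% intervals from the fit. Alternatives were DESeq2 1.42.0, limma-voom (limma 3.58.1), RLE scaling, no filter, replicate numbers as a block, the title's letter as a term, and each tumour left out. Since 1 tumour came from each mouse, p-values apply to variation between mice.

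The members and lists were chosen with earlier results of these data known. All members were named by role: values per tumour for the called gene, the 4 smallest p-values, the most abundant member of each role per exon kilobase and paralogues. From each pathway list the 2 genes with the smallest p are named. Other genes given per tumour were chosen after their values were seen. Results for 1 listed gene are not reported here. Promoter windows came from RefSeq (GRCm38.p6).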

Additional observations from a re-analysis of the deposited data

Results flagged for a closer look

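No member had a tumour far from the others of its group by Dixon's 95% criterion for 4 values, but 5 of the pathway genes named above did. The 106 combinations of gene and group examined do not cover all 99 tested pathway genes. Among such combinations chance alone flags about 1 in 20. Gbp2b was at 101 CPM in Trp53ΔIECAktE17K replicate 2, against 10.8 to 25.9 CPM in the other 3 tumours of that group. Ccl5 was at 57.4 CPM in the same tumour, against 2.27 to 10.9 CPM. Rnaseh2b was at 39.0 CPM in Trp53ΔIECAktE17K replicate 3, against 23.7 to 25.2 CPM. Oas1g was at 28.8 CPM in Trp53ΔIECAktE17K replicate 1, against 38.7 to 40.6 CPM. Cxcl11 was at 0.536 CPM in Trp53ΔIEC replicate 1, the tumour with the lowest members, against 5.82 to 6.54 CPM.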

How the results depend on the processing

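Over 14 alternatives 24 members had log2 fold changes above 0 and 3 (Gbp2, Gbp7 and Irf9) below 0 each time, and 7 changed sign in at least 1, none of them called in any. The members' median was 0.46 to 0.92 with 1 tumour left out in turn, against 0.73. DESeq2 called 1715 higher and 764 lower genes, with 5 members higher (Ifi27l2a, Mx1, Bst2, Oas2 and Irf7), and 4 higher and 5 lower pathway genes. With the title's letter as a term, 90 higher and 6 lower genes were called, and 0 members; the letter is unexplained, A is held only by Trp53ΔIECAktE17K replicates 1 and 2, and the deposited files' names give A to all 4 of that group. Leaving out 1 tumour gave 64 to 702 higher and 10 to 247 lower genes (569 and 125 with all; 64 and 10 without Trp53ΔIEC replicate 2), 0 to 1 higher members and 0 to 2 lower pathway genes, these being Ifngr2 and Ifnlr1 without Trp53ΔIECAktE17K replicate 4. The replicate block called 48 higher and 2 lower genes, and 0 members. Ifi27l2a had adjusted p = 0.0750 with the block and 0.0770 with the letter. Same-numbered tumours deviated from their group means with correlations of -0.04, 0.01, -0.24 and 0.01, and 0 of 8 tumours correlated best with their own number. This check gave no sign that the numbers pair the tumours, but it could miss a weak shared effect and cannot exclude pairing. Ifit2 had a log2 fold change of 0.11 in limma-voom and 0.10 with the replicate block, and Zbp1 had -0.020 with the letter. With 1 tumour left out the ranges were -0.49 to 0.16 for Ifit2, -0.69 to 0.14 for Irf1, -0.15 to 0.34 for Ifih1, -0.19 to 0.43 for Zbp1, -0.40 to 0.081 for Parp14 and -0.043 to 0.71 for Trim30a, and -0.91 to 0.0013 for Gbp3. The causes of these changes were not tested, beyond the fewer residual degrees of freedom that the block, the letter and each removal leave. Every member had at least 41 reads in each tumour, whereas the interferon ligands had too few to test.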
